A study of Mus musculus with 2 samples.

Results

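The genes described here are 9 genes of the Hippo-YAP/TAZ pathway in mouse fibroblasts, taken by name from a table of 33757 features: Ccn1 (Cyr61), Ccn2 (Ctgf), Ankrd1, Amotl2, Lats2, Ajuba, Axl, Yap1 and Wwtr1 (TAZ). All 9 had a row, and no measured value was used to choose them, although they were proposed with earlier results of these data known. The cells were NIH3T3-Rev-VNP1-H2B-iRFP fibroblasts, an NIH3T3 line in which a Venus reporter follows Nr1d1, a repressor of the circadian clock, and in which histone H2B is fused to the near-infrared protein iRFP. They were unsynchronized and at 95% confluency, about 5 days after seeding, and none was treated. Single cells were sorted by Nr1d1-Venus into 4 bins, from bin 1 (dimmest) to bin 4 (brightest), and their RNA was read by FLASH-seq, which covers transcripts over their full length, on 2 plates. The sorting record placed the high H2B-iRFP sort on plate 1 and the low sort on plate 2, so sort and plate cannot be told apart. A given bin also occupied identical well columns on either plate, so bin and position cannot be told apart either.

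Yap1 and Wwtr1 encode YAP and TAZ, transcriptional co-activators that bind DNA through the TEAD factors. The Hippo kinases, ending in LATS1 and LATS2, phosphorylate both proteins and hold them out of the nucleus, and dense, rounded or unstretched fibroblasts are the textbook setting in which this occurs. Ccn1 and Ccn2 encode secreted matricellular proteins, Ankrd1 a nuclear and sarcomeric ankyrin-repeat protein, and Axl a receptor tyrosine kinase. Amotl2, Lats2 and Ajuba encode parts of the pathway itself: an angiomotin that binds YAP, a kinase, and a LIM protein that binds LATS. Because YAP and TAZ are controlled largely as proteins, the transcripts of Yap1 and Wwtr1 do not measure their activity.

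Promoter sequence was examined for the binding motif of TEAD, GGAATG, which reads CATTCC on the other strand. RefSeq windows (build GRCm38.p6) of 250 bases before the annotated start were at hand for 8 of the 9 genes, and 7 of these held at least 1 match on either strand: Ccn1, Ankrd1, Amotl2, Ajuba, Axl, Yap1 and Wwtr1. Lats2 had no match in either of its windows. Of 32851 such windows in the table, 12.6% held a match. The E-box CACGTG was found in the windows of Yap1 and Lats2 and in 6.02% of all windows, and the AP-1 motif TGACTCA in none of the 8 genes and in 4.46% of all windows, each read on both strands. No motif is contained in another. A match describes these letters in this window and is not a measured site. The windows below are shown 5′ to 3′ on the gene's strand with matches to the TEAD motif in capitals. Ccn1, Amotl2 and Ajuba are shown because their transcripts were positively correlated from cell to cell, Axl because it was not correlated positively with theirs, and Wwtr1 because it fell alike on both plates along Venus.
Ccn1 (chr3:145649986-145650235, minus strand): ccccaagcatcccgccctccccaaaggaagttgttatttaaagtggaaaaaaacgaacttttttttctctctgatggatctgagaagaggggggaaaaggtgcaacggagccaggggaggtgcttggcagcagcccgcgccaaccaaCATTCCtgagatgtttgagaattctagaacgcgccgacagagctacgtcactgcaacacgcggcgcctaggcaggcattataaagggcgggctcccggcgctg
Amotl2 (chr9:102717554-102717803, plus strand): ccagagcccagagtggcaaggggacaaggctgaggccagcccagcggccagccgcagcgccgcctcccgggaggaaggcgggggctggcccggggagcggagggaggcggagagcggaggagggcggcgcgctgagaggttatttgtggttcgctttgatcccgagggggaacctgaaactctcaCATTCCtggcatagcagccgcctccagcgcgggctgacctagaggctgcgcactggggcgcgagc
Ajuba (chr14:54577662-54577911, minus strand): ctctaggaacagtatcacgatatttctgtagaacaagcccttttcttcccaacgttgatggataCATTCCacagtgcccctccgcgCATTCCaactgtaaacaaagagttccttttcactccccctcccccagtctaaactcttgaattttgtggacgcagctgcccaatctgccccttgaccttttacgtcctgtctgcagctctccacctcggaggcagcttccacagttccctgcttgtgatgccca
Axl (chr7:25788734-25788983, minus strand): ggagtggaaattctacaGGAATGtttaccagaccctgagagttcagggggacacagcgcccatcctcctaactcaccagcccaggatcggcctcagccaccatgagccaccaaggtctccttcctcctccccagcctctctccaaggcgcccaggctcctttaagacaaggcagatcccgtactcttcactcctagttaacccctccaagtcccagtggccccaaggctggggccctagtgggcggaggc
Wwtr1 (chr3:57575911-57576160, minus strand): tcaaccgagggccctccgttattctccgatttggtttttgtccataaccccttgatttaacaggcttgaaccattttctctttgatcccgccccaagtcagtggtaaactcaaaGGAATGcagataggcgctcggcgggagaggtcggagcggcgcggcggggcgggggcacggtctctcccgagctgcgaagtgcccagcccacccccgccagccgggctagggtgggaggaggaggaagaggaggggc
The first base of the match lay 103 bases before the start in Ccn1, 65 in Amotl2, 233 in Axl and 136 in the window shown for Wwtr1. Ajuba held 2 matches, 186 and 164 bases before its start, and Ankrd1, not printed, held 2 at 210 and 123 bases.

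Of 768 cells, 762 passed the filters, 383 on plate 1 and 379 on plate 2, with 151173 to 1618022 counts each. Counts were summed per plate and Venus bin to give 8 sums of 76042157 to 86612194 counts, which are the replicates of every test. The labels do not say that the plates came from separate cultures, so p-values measure only the spread between these sums. The model holds a plate term, which takes out any constant difference between the plates and so between the iRFP sorts. The spread that remains includes any difference between the sorts that varied from bin to bin. Fibroblast identity was checked first: all 10 fibroblast markers exceeded 10 CPM (counts scaled to equal library totals), summing to 22989 to 29079 CPM, and all markers with a row of endothelial cells, leukocytes and adipocytes stayed under 1 CPM. Of the epithelial markers Krt14 stood at 33.4 CPM, Cdh1 at 4.8 CPM and Epcam at 0.0 CPM, and of the muscle markers Des stood at 3.0 CPM. Bins were numbered by the median Venus intensity of their gate on each plate. The reporter transcript followed this order, rising by 1.63 ± 0.02 log2 per bin (SE), as did Nr1d1, by 1.38 ± 0.02. Mitochondrial counts made up 9.27% of the median cell on plate 1 and 7.42% on plate 2.

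The 9 genes covered a wide range of levels in these confluent cells. Per kilobase of exon, Ccn1 was highest, at 120 CPM per kb on plate 1 and 108 on plate 2. Axl followed at 51.4 and 55.0 CPM per kb, and Amotl2 at 22.6 and 20.0. Ccn2 stood at 19.5 and 12.6 CPM per kb, a plate-to-plate spread that contained Wwtr1, at 14.9 and 14.6, so these neighbours were not separated. Yap1 was at 8.73 and 8.65 CPM per kb, Ajuba at 4.63 and 4.12 and Ankrd1 at 0.296 and 0.205, each apart from the next on both plates. Lats2 was last, at 0.00179 CPM per kb on each plate. Both co-activators and Axl had at least 1 count in 100% of cells on both plates. Amotl2 was detected in 99.7% and 99.2% of cells, Ccn1 in 98.7% and 97.9%, Ajuba in 84.9% and 79.4% and Ccn2 in 79.1% and 70.7%. Thus 7 of the 9 genes were seen in more than 50% of cells, and the same 7 were when each cell was thinned to 300000 counts.

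Lats2, a kinase that is also a known YAP target, was nearly unseen. It had 8 counts in 8 of 762 cells, 4 on each plate, which is 0.0125 CPM with an exact Poisson interval of 0.00538 to 0.0245 that covers counting error only. Its paralogue Lats1 had 21054 counts in 759 cells, or 32.8 CPM. In the GENCODE M21 annotation a second protein-coding gene, Gm49361, shares exons with Lats2 on the same strand, and how reads of shared exons were counted is not given in the sources used here. In that annotation, 4016 of the 6971 exon bases of Lats2 are not shared, and Gm49361 itself had 2 counts. GENCODE M21 is on build GRCm38, whereas the submitters' processing notes name GRCm39, so the exons used in counting may differ. The neighbouring genes Xpo4 and Sap18, looked up after the Lats2 value was seen, had 7889 and 47163 counts. Lats2 did not pass the filter on low counts and was not tested along Venus, so every test below covers 8 of the 9 genes.

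Along the Venus bins, 3 of the 8 genes tested passed an adjusted p of 0.05 in edgeR's quasi-likelihood F-test, and all 3 were lower toward bright Venus. Of all 18430 genes tested, 15.4% were called in either direction, 6.78% as higher and 8.64% as lower. The share among these genes, 37.5%, rests on few genes, and 7 of the 8 belong to the better-measured genes (mean log2 CPM of at least 3), of which 25.4% were called. The median trend of the 8 was -0.10 log2 per bin, against 0.00 over all genes tested. The genes called were Ccn1, Ccn2 and Wwtr1, and the same 3 were called when any difference among the bins was tested, where 8.37% of all genes were called.

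Ccn1, which encodes an adhesive matrix protein, fell toward bright Venus. Its summed level was 326, 253, 207 and 189 CPM in bins 1 to 4 of plate 1. Plate 2 gave 245, 220, 222 and 186 CPM. The dimmest bin was highest and the brightest lowest on both plates, and bin 1 (286 ± 57.6 CPM, SD, n = 2 plates) did not overlap bin 4 (187 ± 2.01 CPM). The fitted trend of -0.21 ± 0.04 log2 per bin (SE) was called (edgeR adjusted p = 0.0108). The fitted level of bin 4 was 0.634 times that of bin 1. On plate 1 alone the trend was -0.29 and on plate 2 alone -0.13. Median cells did not follow the sums on plate 2, where the medians of the bins were 106, 149, 134 and 65.6 CPM, highest in bin 2, whereas on plate 1 they fell from 242 to 234, 155 and 85.2 CPM. Without bin 4 the trend was -0.20 and the call was lost (adjusted p = 0.125, edgeR).

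Ccn2, a second CCN gene and a mediator of fibroblast matrix production, showed the steepest fall among the 8. Its level was 85.4, 54.9, 51.1 and 33.0 CPM over the bins of plate 1. The bins of plate 2 stood at 57.9, 26.0, 31.4 and 29.3 CPM. Bin 1 was highest on both plates (71.6 ± 19.4 CPM, SD, n = 2, against 31.1 ± 2.57 CPM in bin 4), but plate 2 showed little difference among bins 2 to 4. The fitted trend of -0.36 ± 0.06 log2 per bin was called (edgeR adjusted p = 0.0078). The fitted level of bin 4 was 0.430 times that of bin 1, and the step from bin 1 to bin 2 alone was -0.88 ± 0.18 log2. In single cells, the share with a Ccn2 count fell from 87.4% in bin 1 to 70.8% in bin 4 of plate 1. On plate 2 it was lowest in bin 1, at 66.3%, and 71.3% in bin 4, and median cells ranged only from 14.2 CPM in bin 1 to 8.91 CPM in bin 4. Without bin 1 the trend was -0.17 (adjusted p = 0.365), and without the plate term in the model the adjusted p was 0.0935 (edgeR). In the annotation, Ccn2 exons overlap the antisense gene Gm15270, and the use of strand in counting is not given in the sources used here, so reads of the pair may be mixed.

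**Figure D1:**
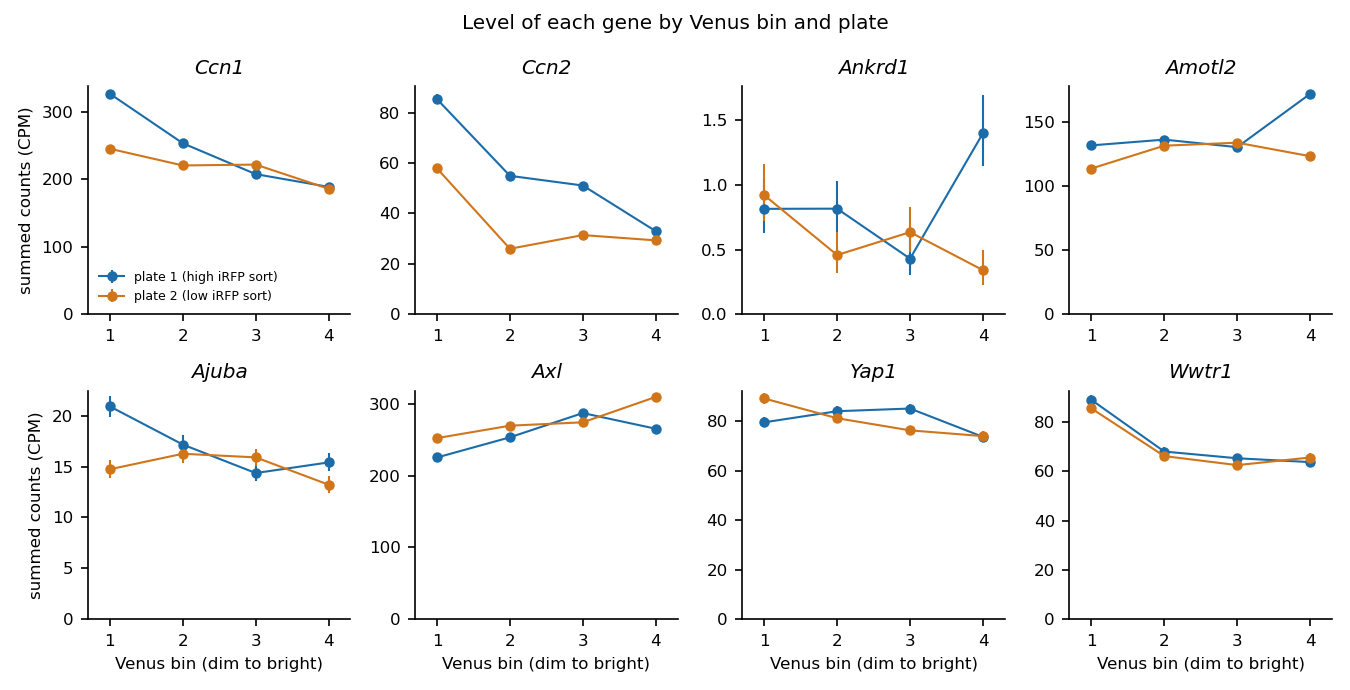
Summed level in CPM (vertical axis, from 0) of 8 of the 9 genes in the 4 Venus bins (horizontal axis), as 1 line for each plate, with bars for exact Poisson 95% intervals of counting error. Ccn1, Ccn2 and Wwtr1 were highest in bin 1 on both plates, and Ankrd1 ran in opposite directions on the plates.

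Ankrd1, a stretch-responsive gene much used as a YAP reporter, was sparse. It had 0.815, 0.817, 0.430 and 1.40 CPM in bins 1 to 4 of plate 1. On plate 2 it had 0.921, 0.458, 0.635 and 0.341 CPM. Bin 4 was the highest bin of plate 1 and the lowest of plate 2, and a count was seen in 12.3% of cells on plate 1 and 8.97% on plate 2. The trend of -0.08 ± 0.18 log2 per bin was not called (adjusted p = 0.827, edgeR).

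Of the genes that encode pathway components, neither that was tested was called. Amotl2 had 132, 136, 130 and 172 CPM over the bins of plate 1. Plate 2 gave 114, 132, 134 and 123 CPM. Only bin 4 of plate 1 stood above the others, and the trend was 0.06 ± 0.03 log2 per bin (adjusted p = 0.320, edgeR). Ajuba had 20.9, 17.2, 14.4 and 15.4 CPM on plate 1. The bins of plate 2 stood at 14.7, 16.3, 15.9 and 13.2 CPM. Bin 1 of plate 1 was the highest sum for Ajuba while bin 1 of plate 2 lay below bins 2 and 3 of that plate, and its trend of -0.12 ± 0.05 log2 per bin was not called (adjusted p = 0.138, edgeR).

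Axl, the receptor gene for the ligand Gas6, had an estimate above 0, as Amotl2 did. Its level was 226, 254, 288 and 266 CPM over the bins of plate 1. Plate 2 gave 253, 270, 275 and 310 CPM. Bin 1 was lowest on both plates, although the ranges of bins 1 and 2 nearly met. The trend was 0.07 ± 0.02 log2 per bin and narrowly missed the threshold (adjusted p = 0.059, edgeR), and 5 of the 11 alternatives with an adjusted p passed it, with library totals in place of TMM giving 0.0335.

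The co-activators themselves differed in pattern. Wwtr1 had 89.1, 68.1, 65.4 and 63.8 CPM over the bins of plate 1. The bins of plate 2 stood at 85.6, 66.2, 62.6 and 65.7 CPM. The plates nearly coincided: bin 1 (87.4 ± 2.46 CPM, SD, n = 2) lay above every other sum, and bins 2 to 4 stayed between 62.6 and 68.1 CPM. The fitted trend of -0.15 ± 0.02 log2 per bin was called (edgeR adjusted p = 0.0035). The step from bin 1 to bin 2 was the largest, at -0.39 ± 0.06 log2, against -0.08 ± 0.06 and -0.02 ± 0.06 for the next steps. Without bin 1 the trend was -0.05 and was not called (adjusted p = 0.398, edgeR). Median cells showed the same step, from 86.1 to 64.9 CPM on plate 1 and from 82.6 to 61.5 CPM on plate 2.

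Yap1 had 79.5, 84.0, 85.1 and 73.7 CPM on plate 1. On plate 2 it had 89.2, 81.2, 76.3 and 74.0 CPM. Bin 4 was lowest on both plates, but bin 1 was highest on plate 2 only. Its trend of -0.08 ± 0.02 log2 per bin was not called (adjusted p = 0.063, edgeR), and 2 of the 11 alternatives with an adjusted p called it. Its exons overlap the antisense gene Gm20416 in the annotation, with the same limit as for Ccn2.

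**Figure D2:**
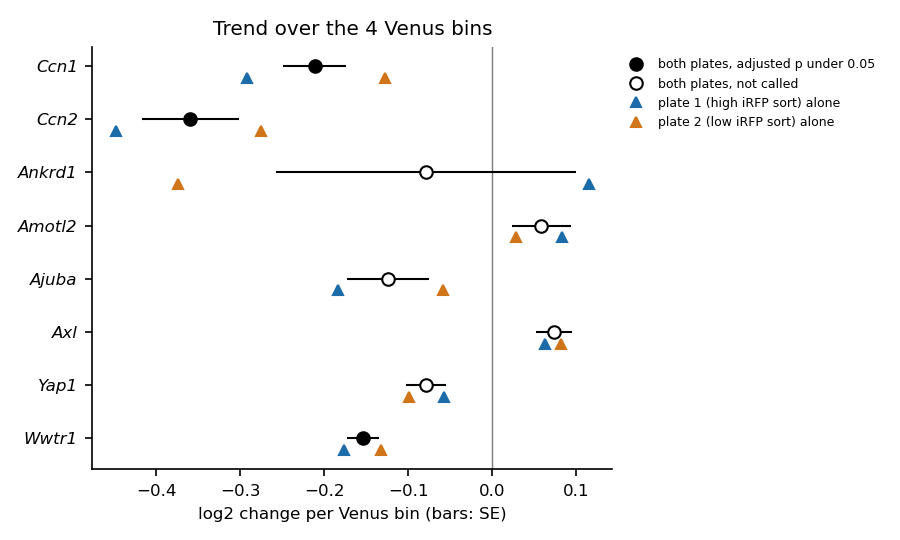
Change per Venus bin in log2 units (horizontal axis) for the 8 genes tested, as the fit over both plates (circle, with SE bars; filled where the adjusted p was under 0.05) and as each plate alone (triangles, with no test). The filled circles are Ccn1, Ccn2 and Wwtr1, all below 0, and the triangles of Ankrd1 lie on either side of 0.

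Other genes of the pathway were described from lists chosen by function. The share called in each short list stands beside 15.4% of all genes tested and 25.4% of the better-measured genes. Of 16 further genes of a YAP/TAZ target signature, 15 had a row and 14 were tested. In all 5 were called (35.7%), 1 higher and 4 lower, with a median of -0.04 log2 per bin. F3, which encodes tissue factor, fell by 0.37 ± 0.03 log2 per bin, from 507 ± 7.24 CPM (SD, n = 2) in bin 1 to 262 ± 30.6 CPM in bin 4 (edgeR adjusted p = 8.2e-04). Gadd45a, a stress-response gene, fell by 0.24 ± 0.02 and Rbms3, an RNA-binding protein gene, by 0.17 ± 0.03. Tgfb2, a TGF-beta ligand gene, rose by 0.35 ± 0.07 log2 per bin from a low level, 1.10 ± 0.0593 CPM in bin 1. The fourth gene called as lower was Asap1, an Arf GTPase-activating protein gene, at -0.09 ± 0.02. It did not fall steadily but was highest in bin 2 on both plates. Its bin means were 422 ± 16.2, 508 ± 39.5, 445 ± 11.6 and 377 ± 5.28 CPM (SD, n = 2) in bins 1 to 4.

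Among 21 upstream Hippo genes, all tested, 4 were called, and the median was 0.02 log2 per bin. That share, 19.0%, was near the 15.4% of all genes tested. Fat1, an atypical cadherin gene, rose by 0.10 ± 0.02 and Stk3, the gene of the kinase MST2, by 0.07 ± 0.02. Amotl1, an angiomotin gene like Amotl2, fell by 0.17 ± 0.03, from 59.0 ± 1.16 CPM in bin 1 to 42.5 ± 1.59 CPM in bin 4, and Map4k4, a kinase that can activate LATS, fell by 0.16 ± 0.03. Lats1 was not called, at -0.06 ± 0.03 (adjusted p = 0.189, edgeR). Of 6 genes for TEAD factors and the VGLL proteins that compete for them, 2 were called (33.3%). Tead2 fell by 0.20 ± 0.02 log2 per bin (adjusted p = 0.0021, edgeR), from 83.8 ± 1.18 to 59.0 ± 1.21 CPM. Vgll3 rose by 0.13 ± 0.03 (adjusted p = 0.041, edgeR). Of the other CCN genes 3 were tested and only Ccn4 was called. It rose by 0.16 ± 0.03 log2 per bin, from 76.7 ± 5.53 to 109 ± 0.971 CPM, the direction opposite to Ccn1 and Ccn2.

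Lists that share regulators with these genes were set beside them. Of 14 actin and SRF target genes 2 were called, both lower (Actg1 at -0.10 ± 0.03 and Flna at -0.10 ± 0.02), with a list median of -0.01 log2 per bin. That share, 14.3%, was near the 15.4% of all genes tested. Of 12 immediate early genes 5 were called (41.7%), with Fos, Ier2 and Junb lower, Fosl1 and Ier3 higher, and a median of -0.01. Of 6 TGF-beta target genes 4 were called (66.7%), all lower, with a median of -0.16, led by Ltbp2 at -0.32 ± 0.05. Of 18 S phase genes 10 were called (55.6%), all higher, with a median of 0.27. Of 20 G2/M genes 6 were called (30.0%), all higher, with a median of 0.17 that was 0.37 on plate 1 and -0.03 on plate 2. The part of these lists in the trends of the 8 genes was not tested.

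Between the plates, Ccn2 differed most among the genes seen in more than 50% of cells. It stood at 55.9 CPM on plate 1 and 36.1 CPM on plate 2, a ratio of 1.55 (95% Poisson interval 1.51 to 1.58, counting error only), and was higher on plate 1 in 4 of 4 bins. The ratio was 1.11 for Ccn1, 1.13 for Amotl2 and 1.12 for Ajuba, each higher on plate 1 in 3 of 4 bins. It was 1.02 for Wwtr1, 1.01 for Yap1 and 0.935 for Axl. For Ankrd1 it was 1.45 (1.20 to 1.75), but plate 1 was higher in 2 of 4 bins only. With 1 plate for each iRFP sort there is no test of this difference.

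Cells within a plate differed more for Ccn1, Ccn2, Ajuba and Amotl2 than for Axl and the co-activators. The coefficient of variation (CV, the SD over cells divided by their mean) of Ccn2 was 1.55 on plate 1 and 1.80 on plate 2, where counting alone would give 0.146 and 0.181. The 10% of cells with the highest level held 45.5% of the Ccn2 level summed over cells on plate 1 and 54.7% on plate 2. Ccn1 had CVs of 0.957 and 1.21, Ajuba 1.03 and 1.04, and Amotl2 0.837 and 0.851. Ankrd1, seen in few cells, had CVs of 4.55 and 4.73, where counting alone would give 1.18 and 1.41. Axl (0.412 and 0.385), Yap1 (0.420 and 0.466) and Wwtr1 (0.479 and 0.497) varied less, and every cell held them. Their range was still wide: Axl ran from 38.5 CPM through a median of 245 to 711 CPM on plate 1, and Wwtr1 from 7.69 through 66.9 to 204 CPM. Ccn1 ran from 0 through 183 to 1468 CPM on plate 1 and from 0 through 112 to 1498 CPM on plate 2.

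**Figure D3:**
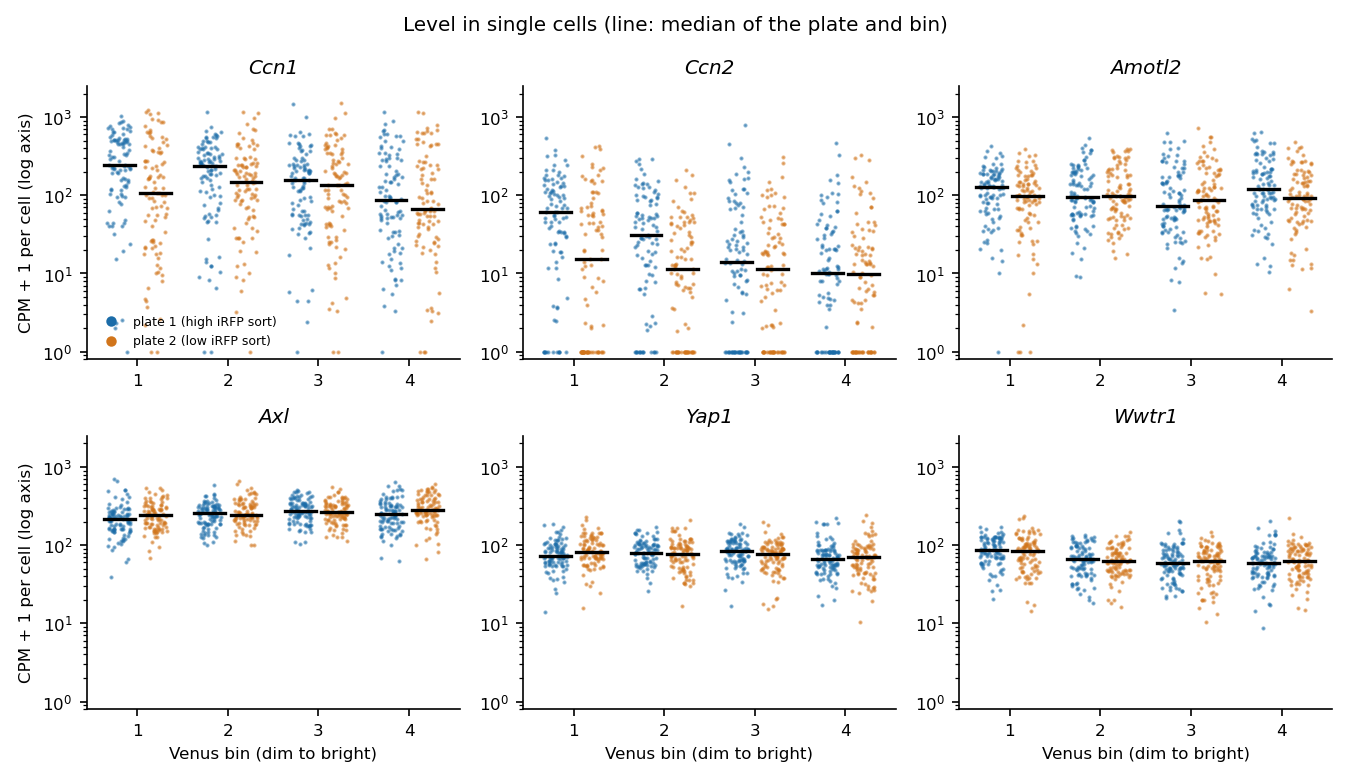
Level per cell as CPM + 1 on a log axis (vertical) for 6 genes in the 4 Venus bins (horizontal), with 1 point for each cell, coloured by plate, and a black line at the median. Ccn1 and Ccn2 spread widely in every bin, down to 0, and Axl, Yap1 and Wwtr1 form narrower bands.

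The Venus bins held little of this variation. Of the variance of ranks over cells, bins accounted for 10.2% for Ccn2 on plate 1 but 0.564% on plate 2, for 7.04% and 1.26% for Ccn1, and for 9.71% and 4.68% for Wwtr1. For Axl the shares were 5.84% and 3.25%, and for Yap1 3.74% and 2.98%. For comparison, Dbp, a clock output gene, gave 44.4% and 42.3%. Across cells of a plate, Venus fluorescence had a Spearman correlation with Ccn2 of -0.33 on plate 1 and -0.08 on plate 2, and with Wwtr1 of -0.28 and -0.17. Ranked within bins, the same correlations of Wwtr1 were -0.05 and -0.02.

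From cell to cell, the higher correlations were among Ccn1, Ccn2, Amotl2 and Ajuba, and those of Yap1, Wwtr1 and Axl with them were lower or negative. These correlations describe 383 and 379 cells that share a plate, a library preparation and a similar depth. Over the 36 pairs of the 9 genes, 8 of which involve the 8 counts of Lats2, the median Spearman correlation was 0.035 on plate 1 and 0.072 on plate 2, and 6 pairs exceeded 0.2 on both plates. The highest was Ccn1 with Ccn2, at 0.564 on plate 1 and 0.462 on plate 2. Ccn1 with Amotl2 gave 0.458 and 0.431, and Amotl2 with Ajuba 0.418 and 0.326. The other 3 pairs were Ccn1 with Ajuba (0.285 and 0.260), Ccn2 with Amotl2 (0.297 and 0.241) and Ankrd1 with Amotl2 (0.237 and 0.291). Just below lay Ccn2 with Ajuba (0.223 and 0.164), Ankrd1 with Ajuba (0.238 and 0.172) and Ankrd1 with Ccn1 (0.260 and 0.129). Ankrd1 with Ccn2 was lower, at 0.098 and 0.090. Ankrd1, seen in few cells, was thus about as close to Amotl2, Ajuba and Ccn1 as the group's weakest pair, but not to Ccn2. Ranked within Venus bins, Ccn1 and Ccn2 still gave a mean of 0.473.

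Axl ran weakly against the same genes, at -0.178 and -0.153 with Ccn1, -0.157 and -0.104 with Ccn2 and -0.113 and -0.171 with Amotl2. With Ajuba it was weaker, at -0.045 and -0.073. Within Venus bins the values of Axl were -0.108 and -0.120 with Ccn1 and -0.065 and -0.075 with Ccn2. They were -0.085 and -0.163 with Amotl2 and -0.003 and -0.063 with Ajuba. Yap1 and Wwtr1 were near 0 with each other (-0.002 and 0.032). Yap1 lay between -0.087 and 0.095 with each of the other genes. With Ccn2 it was weakly positive on both plates (0.088 and 0.079), also when ranked within Venus bins (0.078 and 0.075). Wwtr1 was weakly positive on both plates with Ajuba (0.123 and 0.165), Ccn2 (0.104 and 0.162) and Ccn1 (0.129 and 0.083). Ranked within Venus bins, the values were lower on plate 1: Ajuba 0.067 and 0.154, Ccn2 0.016 and 0.136, Ccn1 0.053 and 0.076. These genes ranked 147, 209 and 415 of 9468 in the ranking for Wwtr1 described below, which uses the values not ranked within bins.

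**Figure D4:**
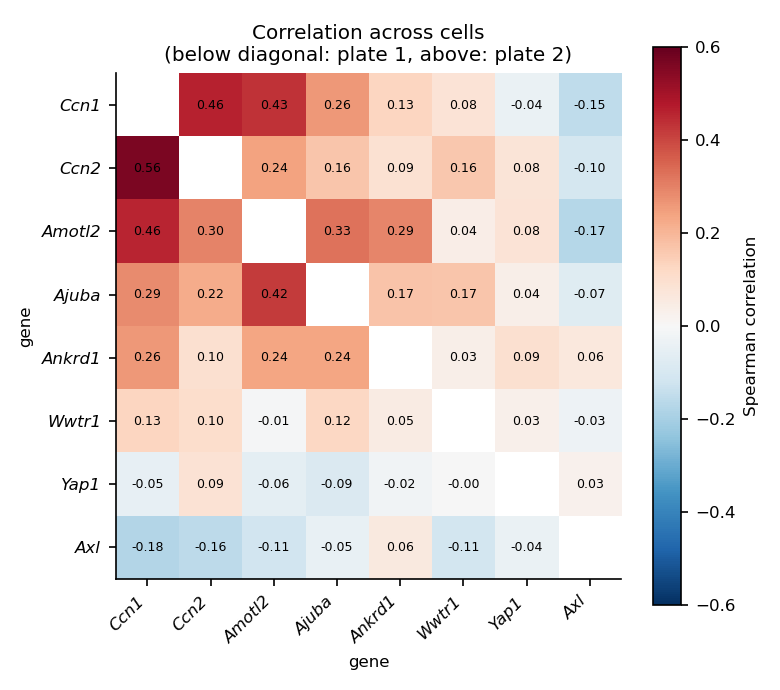
Spearman correlation across cells for each pair of 8 genes, with plate 1 below the diagonal and plate 2 above it; both axes list genes and colour runs from blue (negative) to red (positive). The red corner is Ccn1, Ccn2, Amotl2 and Ajuba, the highest value being 0.56 for Ccn1 with Ccn2 on plate 1, and the Axl row is pale blue toward these genes.

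The genes nearest to each of these in pattern were sought among 9468 genes, by the mean of the within-plate Spearman correlations over cells. For Ccn1 they were Zfp36 (0.538), which encodes an mRNA decay factor, Ccn2 (0.513) and Ier2 (0.488), an immediate early gene. Ccn2 was nearest to Ccn1, then to Ptx3 (0.484), a secreted pentraxin gene, and Col1a1 (0.417), a collagen gene. For Amotl2 they were Vgll3 (0.502), of the VGLL proteins named above, Acta2 (0.468), smooth muscle actin, and Adamts5 (0.462), a matrix protease. Among the 9468, Ccn1 had rank 5 for Amotl2 and Amotl2 had rank 5 for Ccn1. Ajuba was nearest to Amotl2 (0.372), then Tsc22d2 (0.299) and Prss23 (0.297).

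Axl had the closest neighbour of the 7 genes examined in this way, Cavin1 (0.558), a caveolar coat gene, followed by Emp1 (0.512), a membrane protein gene, and Pkm (0.502), a glycolytic enzyme. In the ranking for Ccn1, Axl stood at 9216 of 9468. Yap1 had Thy1 (0.336), Marcks (0.336) and Pafah1b2 (0.317). Wwtr1 had Tpt1 (0.327), Rbm8a (0.305) and Rps3a1 (0.298), and its value for Tpt1 was 0.213 when cells were ranked within Venus bins.

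Other measures of the same cells were set beside each gene. The mean log2 level of the actin and SRF list correlated with Amotl2 at 0.52 on plate 1 and 0.44 on plate 2, with Ccn1 at 0.41 and 0.34, with Ajuba at 0.39 and 0.24 with Ccn2 at 0.29 and 0.26 and with Ankrd1 at 0.28 and 0.26. For Axl it was -0.02 and 0.03. The immediate early list correlated with Ccn1 at 0.38 and 0.57 and with Ccn2 at 0.17 and 0.23, against 0.10 and 0.12 for Amotl2. The list of other YAP/TAZ targets reached 0.17 and 0.25 with Ccn1 and 0.20 and 0.17 with Ccn2, and -0.13 and -0.16 with Axl. That list was also positive on both plates with Yap1 (0.14 and 0.12) and Amotl2 (0.11 and 0.13). Ajuba (0.10 and 0.04) and Ankrd1 (0.03 and 0.04) were lower, and Wwtr1 differed in sign between the plates (-0.04 and 0.03). The TGF-beta list reached 0.12 and 0.09 with Ccn1, 0.14 and 0.04 with Ccn2 and 0.11 and 0.07 with Yap1. None of the other genes was positive with it on both plates.

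Axl was the gene of the 9 whose level moved most with the cell cycle lists, at 0.24 and 0.33 for G2/M and 0.21 and 0.29 for S phase, and it ran against the mitochondrial share at -0.28 and -0.26. Amotl2 (-0.20 and -0.13) and Ankrd1 (-0.21 and -0.16) also ran against that share. Ccn1 was at -0.11 and -0.15 with G2/M and Ccn2 at -0.14 and -0.16. Total counts per cell had a correlation between -0.04 and 0.12 with each of the 9 genes, and forward scatter, which grows with cell size, between -0.17 (Wwtr1, plate 1) and 0.15 (Amotl2, plate 1). The number of genes detected per cell correlated with Amotl2 at 0.26 and 0.12, with Ankrd1 at 0.15 and 0.10, with Axl at 0.12 and 0.17 and with Ccn1 at 0.13 and 0.12. It ran against Wwtr1 at -0.15 and -0.10 and against Yap1 at -0.09 and -0.10. The part of these measures in the gene correlations was not tested.

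**Figure D5:**
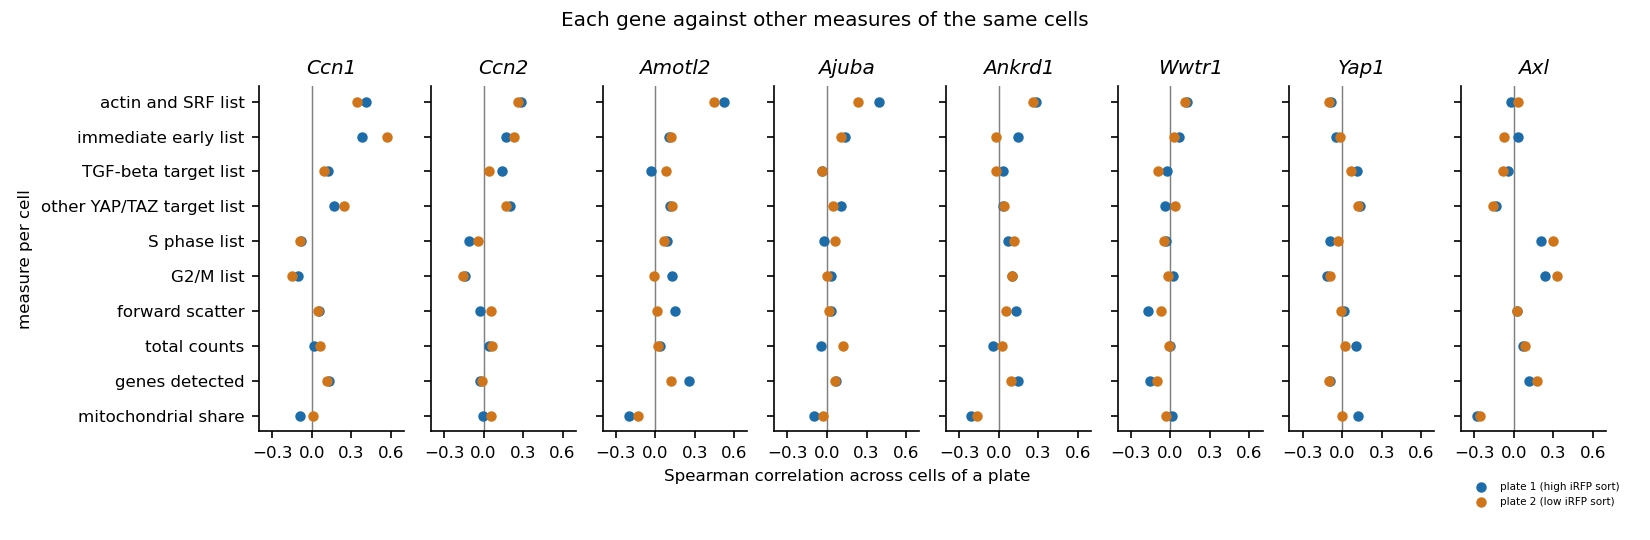
Spearman correlation across the cells of a plate (horizontal axis) of 8 genes with 6 gene lists, forward scatter, total counts, genes detected and mitochondrial share (vertical axis), as 1 point for each plate. Amotl2, Ccn1, Ajuba, Ccn2 and Ankrd1 lie to the right for the actin and SRF list, Ccn1 for the immediate early list, and Axl for the S phase and G2/M lists.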

How the data were processed

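FLASH-seq counts were used from 768 sorted cells of 2 plates. The deposited table holds raw counts per gene and cell, and the deposited sorting record holds intensity values (fluorescence, scatter), gates and wells. STAR 2.7.11a, SAMtools, bedtools and HTSeq and the build GRCm39 (mm39) are named in the submitters' processing notes, with no role given; use of strand or molecular identifiers is not given in the sources used here, so intervals cover counting error only. Symbols came from GENCODE M21 and matched 24902 features.

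Cells with at least 1000 genes, at least 0.1 of their plate's median total and at most 25% mitochondrial counts were kept. Each well received 1 sorted cell, and no doublet caller was run. Counts were summed per plate and bin and tested with edgeR 4.0.16 (R 4.3.3; quasi-likelihood, TMM, filterByExpr, bins plus plate, 3 residual degrees of freedom, Benjamini-Hochberg over 18430 genes). The trend contrast had weights of 3 for outer and 1 for inner bins, divided by 10. Lone-plate trends used a prior count of 2. The same test on simulated counts with 200 genes changed by 0.3 log2 per bin, among 17829 tested, recovered 100% and called 0.0908% of unchanged genes. The simulated counts had the same spread for all genes and no plate effect, and only genes with many counts were changed. The simulated step exceeded the trend of each gene tested here but Ccn2. These shares therefore check the code and do not give the power or error rate in the data. DESeq2 1.42.0 and limma 3.58.1 served as alternatives.

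All 9 genes are named; for each gene seen in at least 50% of cells the 3 most correlated genes, and from each list up to 3 called genes in each direction, or any gene of the pathway lists. Members and lists were chosen with earlier results of these data known. Reporter and clock genes served to check the gates, and of 9 clock genes 9 were called, 8 higher.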

Additional observations from a re-analysis of the deposited data

Results flagged for a closer look

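Ankrd1 had Venus trends of opposite sign on the plates, 0.11 log2 per bin on plate 1 and -0.37 on plate 2, a difference of 0.49. Each plate gives 1 value, and the difference was not tested. The gene had 274 counts on plate 1 and 190 on plate 2 in all, and in bin 4 it had 107 counts on plate 1 and 27 on plate 2. In bin 4 of plate 1 a count was seen in 16.7% of cells. The highest single cell there reached 58.5 CPM, against a summed level of 1.40 CPM, so few cells carried the level of that bin.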

How the results depend on the processing

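Over 88 alternative fits with an adjusted p (11 for each of the 8 genes tested), 76 kept direction and side of the threshold, 4 lost a call, 7 gained one and 1 reversed, the uncalled Ankrd1 at 0.14 log2 per bin without Venus bin 1. Single plates, which have no test, kept the direction in 15 of 16 values, the exception being Ankrd1 at 0.11 on plate 1. They gave -0.29 to -0.13 for Ccn1, -0.45 to -0.28 for Ccn2, -0.18 to -0.13 for Wwtr1 and -0.37 to 0.11 for Ankrd1. For all genes, the trend count of 2843 became 1139 without bin 1, 358 without bin 4 and 1858 with a linear bin term. Without the replicate block (the plate term), 1683 genes were called in the trend and 490 in the test of any difference, where Ccn1 (adjusted p 0.125) and Ccn2 (0.233, edgeR) lost their calls. The count for any difference, 1542, became 3641 with DESeq2, 2661 with no filter on low counts and 2648 with limma on mean log2 CPM over cells, an alternative added after the data were seen. That last fit kept the calls of Ccn1 (-0.26), Ccn2 (-0.42) and Wwtr1 (-0.14, limma) and called Axl (adjusted p 0.0139). The median pair correlation, 0.053, stayed between 0.035 and 0.072, and 7 genes passed 50% detection in every setting run. Library totals without TMM shifted the median of all genes by 0.02 log2 per bin. Ankrd1 and Lats2 rest on few counts (274 and 190 for Ankrd1 on the plates, 8 for Lats2 in all), and no paired test of the iRFP sorts was possible because each sort filled 1 plate.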
